A study of Solanum dulcamara with 18 samples.

Results

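The comparison set leaves of drought plants without caterpillars against leaves of control plants without caterpillars in Solanum dulcamara (bittersweet nightshade), a wild perennial relative of tomato and potato. The members were the 3 libraries titled drought_no and the 3 titled control_no, 6 of the 18 libraries in the series, and each table column was tied to its library by the number in the sample label. Plants of the drought group had 5 days of drought, which was maintained for 2 more days while other plants carried insects, so the leaves had 7 days of drought in all. Control plants had the control watering over the same days and, like the drought plants, no insects. The other 4 groups of the series had flooding without insects or 1 of the 3 water treatments with 48-h feeding by Spodoptera exigua (beet armyworm) caterpillars. All plants grew in a standard greenhouse, and plant age, accession and drought severity are not stated by the labels.

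A leaf that loses water closes its stomata under the hormone abscisic acid, which also switches on genes for protective proteins, osmolytes and water channels. Growth and photosynthesis are commonly turned down in the same leaves, so a drought transcriptome usually holds both a raised and a lowered side. In bittersweet nightshade, which grows from river banks to dry dunes, the same leaves also meet many insect herbivores.

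The features counted were assembled contigs of 501 to 15047 bases. The files give contig IDs without gene names, and 0 of the 24158 contig IDs were found in the reference gene table. Contigs are therefore described by length, with an ID for 4 of them, and neither the leaf identity of the libraries nor any pathway was checked against marker genes. Library totals ran from 7838462 reads (control replicate 1) to 16056241 reads (control replicate 2), and drought libraries held 11013615 to 13072415 reads. No pair of replicates in the 2 groups was alike within sampling noise (chi-square over degrees of freedom of 7.47 to 24.7). Levels are in CPM, reads scaled to a common library total and not divided by contig length. In whole leaves, fewer cells of a type and less RNA per cell cannot be told apart.

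Drought changed the leaf transcriptome widely in both directions: 1160 contigs were higher and 1750 lower than in control leaves. These were 5.75% and 8.68% of the 20170 contigs tested, or 14.4% together (edgeR quasi-likelihood test, Benjamini-Hochberg adjusted p under 0.05). Changes of at least 2-fold were closer in number, at 540 rises (2.68%) and 689 falls (3.42%). The 3 drought libraries lay above all 3 control libraries for 3076 of the tested contigs (15.3%) and below them for 4018 (19.9%), 35.2% together. The median log2 fold change of all tested contigs was −0.0023. The scaling itself brings this value near 0, so it cannot show whether the total RNA of the leaf changed.

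The raised and lowered sides differed in shape. Moderate changes were mostly falls: 694 contigs fell and 288 rose by 1.5- to 2-fold, and 571 fell and 324 rose by 2- to 4-fold. The largest changes were mostly rises, with 125 rises and 95 falls of 4- to 8-fold and 91 rises and 23 falls of 8-fold or more. The counts at 8-fold or more depended on single libraries: they were 43 rises without drought replicate 1 and 59 without control replicate 1, and 44 falls without drought replicate 3. The total of 2910 calls was 1505 without control replicate 1, 1617 without control replicate 2, 1534 without drought replicate 1 and 1620 without drought replicate 2, and falls made up the larger part in each of these fits. When the test itself asked for a change of more than 2-fold, 43 contigs were called higher and 44 lower.

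**Figure D1:**
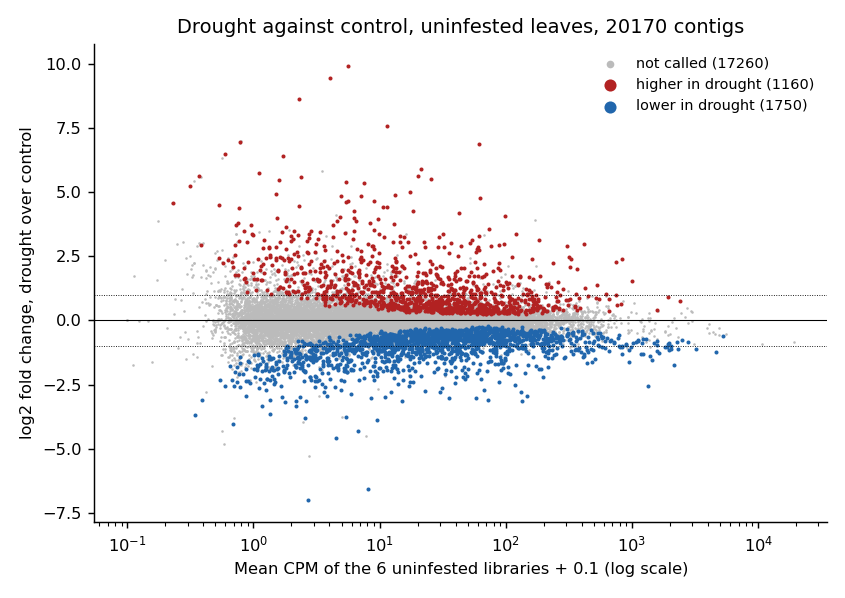
Log2 fold change of each of the 20170 tested contigs (drought over control, uninfested leaves) against its mean CPM over the 6 libraries on a log axis; red points are the 1160 contigs called higher, blue points the 1750 called lower, grey points the 17260 not called, and dotted lines mark a 2-fold change. Red points reach further from 0 than blue ones, most of all at low CPM, while blue points are the more numerous.

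Calls reached every level of abundance, and falls outnumbered rises in each class. Of the 2029 contigs with a mean of 100 CPM or more over all 18 libraries, 184 rose (9.07%) and 289 fell (14.2%). Of the 9797 contigs with 10 to 100 CPM, 654 rose (6.68%) and 969 fell (9.89%). Of the 7172 contigs with 1 to 10 CPM, 308 rose (4.29%) and 441 fell (6.15%). Of the 1172 contigs under 1 CPM, 14 rose and 51 fell. More reads make a change easier to call, so the shares of different classes are not compared. Called contigs were somewhat longer than the rest, with medians of 1384.5 bases for those raised, 1293.5 for those lowered and 1184.5 for those not called, and longer contigs collect more reads.

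The lowered contigs held a larger part of the leaf's reads than the raised ones, in control and in drought libraries. The 1750 lowered contigs held 23.4%, 21.6% and 19.7% of the reads of tested contigs in the 3 control libraries and 12.4%, 12.5% and 13.2% in the 3 drought libraries. The 1160 raised contigs held 4.11%, 4.42% and 4.75% in control and 9.81%, 9.38% and 8.21% in drought libraries. These contigs were chosen on the same libraries, so the gap between the groups is a description with no test. The net loss of 8.88 percentage points was spread over many contigs: the 10 with the largest losses gave 19.4% of it and the 50 with the largest losses 49.6%. The net gain of 4.71 points was spread in the same manner, with 19.2% of it in 10 contigs and 42.7% in 50.

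The most abundant contigs, chosen without regard to the contrast, held less of the reads in drought leaves. The 10 contigs with the highest mean over all 18 libraries held 7.90%, 7.70% and 7.01% of all reads in control and 5.44%, 5.64% and 5.52% in drought libraries. The 100 highest held 24.9%, 23.8% and 21.9% in control and 18.7%, 19.6% and 18.9% in drought libraries. The groups did not overlap in either measure (exact permutation test, two-sided, p = 0.1 each, which is the smallest p that 3 against 3 samples allow). The number of contigs detected at 1 CPM or more was 18621 ± 72.6 in control and 18656 ± 42.8 in drought leaves (SD, n = 3 each), a difference within the spread (exact permutation p = 0.7). The direction depended on the threshold and the scaling: drought leaves had 68.3 more contigs at 0.5 CPM and 50 fewer at 2 CPM, each with no overlap between the groups (exact permutation p = 0.1). With unadjusted library totals they had 140.7 more at 1 CPM and 195.7 more at 2 CPM, so no direction is given.

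Among the abundant contigs, the rises with the largest gain in CPM went up 1.7- to 5.3-fold. The contig with the largest gain, comp282_c0_seq1 (1363 bases), stood at 1700, 1656 and 2027 CPM in control replicates 1 to 3 and at 3455, 3061 and 2582 CPM in drought replicates 1 to 3. All drought libraries lay above all control libraries, and the log2 fold change was 0.76 ± 0.19 (SE; edgeR gave an adjusted p of 0.016). The call was lost without control replicate 1 or 2 or drought replicate 1 (adjusted p = 0.0639, 0.0693 and 0.0758). A contig of 1896 bases rose from 1110, 1515 and 1342 CPM to 2875, 2343 and 2331 CPM (0.93 ± 0.20 on the log2 scale, adjusted p = 0.0068), and the call held without each of the 6 libraries.

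Larger folds came from contigs that were less abundant in control leaves. A contig of 1532 bases stood at 191, 191 and 388 CPM in control and 1458, 1462 and 788 CPM in drought libraries (2.27 ± 0.46 on the log2 scale, SE; adjusted p = 0.00508 from edgeR). A contig of 689 bases went from 120, 150 and 516 CPM to 1542, 1589 and 1060 CPM (2.41 ± 0.53, adjusted p = 0.00871). In both, control replicate 3 was the highest control library and drought replicate 3 the lowest drought library, and without control replicate 3 the log2 fold changes were 2.70 and 3.37. The call of the contig of 689 bases was lost when only the 6 samples were fitted (adjusted p = 0.0632). The fifth of these abundant rises, a contig of 1096 bases, was at 504 ± 90.3 CPM in control and 1481 ± 316 CPM in drought leaves (SD, n = 3 each). Its adjusted p was 0.0147, and 0.0571, 0.0539 and 0.0577 without control replicate 1, control replicate 3 and drought replicate 2.

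Contigs can also be ranked by the clear space between the groups, the lowest drought library over the highest control library, which a single high library cannot raise. By this measure comp6358_c0_seq1 (936 bases) led the rises, with 0.140, 0.661 and 1.24 CPM in control and 34.4, 27.8 and 55.1 CPM in drought libraries, a gap of 16.3-fold after adding 0.5 CPM. On the log2 scale it rose by 5.63 ± 1.45 (SE; adjusted p = 0.0189 from edgeR) and 6.30 without control replicate 3. In the fit of all 18 libraries its wide SE left it near the threshold. The call was lost without control replicate 1, 2 or 3 (adjusted p = 0.0715, 0.0779 and 0.0543). Contigs of 1357 and 575 bases had gaps of 15.2- and 8.08-fold, and their calls in that fit were as fragile. The first lost its call without any 1 of the 6 libraries (adjusted p from 0.0553 to 0.106). The second lost it without 4 of them (each control replicate and drought replicate 1, adjusted p from 0.0602 to 0.0779). The log2 fold change of the contig of 575 bases was 5.38 ± 1.39 (adjusted p = 0.0195) and 4.53 without drought replicate 1. When only the 6 samples were fitted, comp6358_c0_seq1 and the contigs of 1357 and 575 bases had lower adjusted p-values. They were 0.00139, 6.28e-05 and 0.00804 in that order (edgeR).

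A pair of separated rises kept their call without each of the 6 libraries. A contig of 2472 bases stood at 63.9, 73.4 and 74.0 CPM in control and 509, 600 and 495 CPM in drought libraries, and the libraries of each group lay close together (a log2 rise of 2.92 ± 0.65, SE; adjusted p = 0.0091 from edgeR). A contig of 511 bases went from 1.26, 0.991 and 1.04 CPM to 103, 13.5 and 33.1 CPM (5.53 ± 0.90, adjusted p = 0.00153). Here the control libraries lay close together and the drought libraries far apart, with a gap of 7.96-fold after adding 0.5 CPM. The log2 fold change was 4.42 without drought replicate 1.

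The falls with the largest loss in CPM went down 1.5- to 5.9-fold. The contig with the largest loss, comp15_c0_seq1 (1191 bases), stood at 7808, 6619 and 5217 CPM in control replicates 1 to 3 and at 3136, 2647 and 2539 CPM in drought replicates 1 to 3. The groups were clearly apart, and the change on the log2 scale was −1.24 ± 0.33 (SE; adjusted p = 0.0201 from edgeR). The call was lost without control replicate 1 or 2 or drought replicate 2 or 3 (adjusted p = 0.0832, 0.055, 0.0718 and 0.0553). A contig of 1748 bases fell from 2304 ± 990 to 393 ± 218 CPM (SD, n = 3 each), or by −2.55 ± 0.66 on the log2 scale (SE; edgeR adjusted p = 0.0196). Its call was lost without control replicate 1 or drought replicate 2 or 3 (adjusted p = 0.0792, 0.0792 and 0.05002), and its log2 fold change was −3.02 without drought replicate 1.

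The other abundant falls were contigs of 1337, 1548 and 958 bases, with log2 fold changes of −1.10, −1.73 and −0.61. Their adjusted p-values from edgeR were 0.0153, 0.0272 and 0.0482. Each lost its call without some of the 6 libraries: control replicate 1 or drought replicate 2 for the first (adjusted p = 0.0821 and 0.0556), all but control replicate 3 for the second (0.0614 to 0.102), and any of the 6 for the third (0.0534 to 0.205). The third, a contig of 958 bases, also missed the threshold with the replicate block (adjusted p = 0.0773), other size factors, no filter, limma or only the uninfested samples (adjusted p from 0.055 to 0.0979).

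Falls with the widest clear space between groups were among the firmest calls of the comparison. The leading one, comp688_c0_seq1 (928 bases), had 150, 148 and 262 reads in the control libraries and 0, 3 and 3 reads in the drought libraries, or 21.0, 9.78 and 17.1 CPM against 0.0, 0.229 and 0.255 CPM. The transcript was thus nearly undetected in all 3 drought libraries, and the fitted log2 value of −6.56 ± 0.84 (SE; adjusted p = 0.000363 from edgeR) rests on these few drought reads. It was −5.97 without drought replicate 1. A contig of 1015 bases fell from 65.0, 63.8 and 59.2 CPM to 8.59, 4.73 and 9.94 CPM (−3.02 ± 0.37, adjusted p = 0.000347). A contig of 553 bases fell from 103, 121 and 84.4 CPM to 10.2, 13.3 and 14.7 CPM (−3.01 ± 0.46, adjusted p = 0.001). Contigs of 1179 and 557 bases had log2 changes of −4.30 and −3.87 (adjusted p = 0.000363 and 0.000827), and the second had −4.77 without drought replicate 2. All 5 kept their call without each of the 6 libraries.

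**Figure D2:**
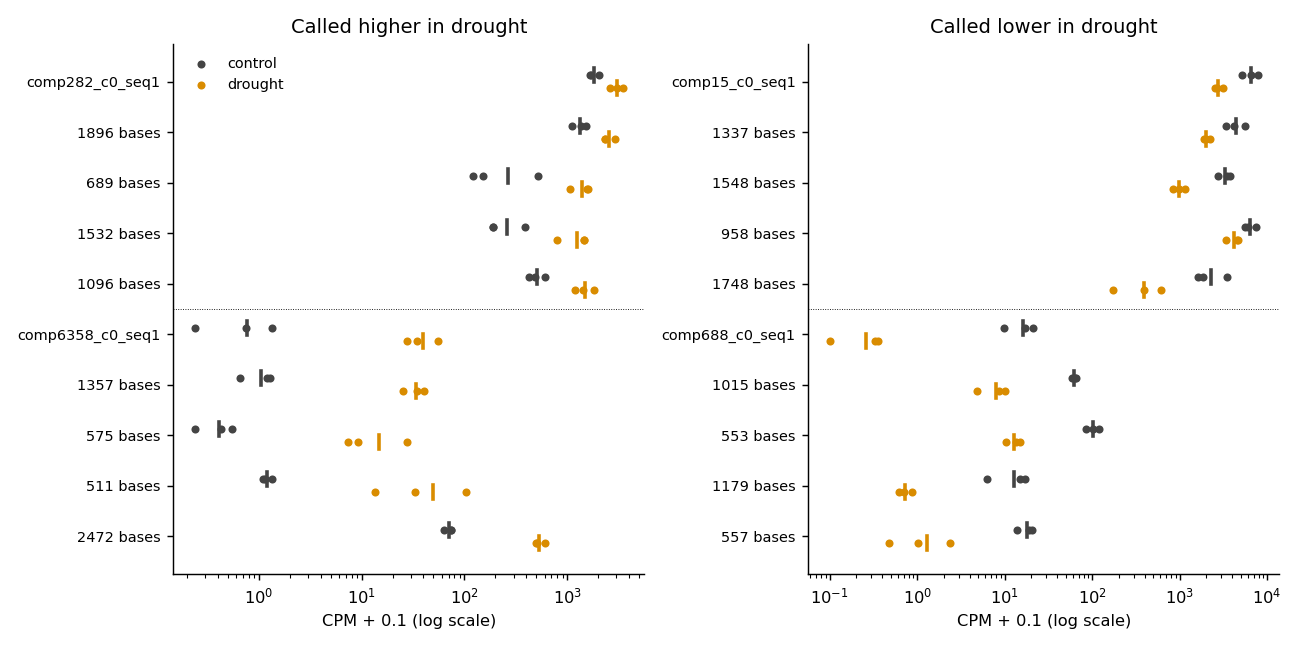
CPM plus 0.1 on a log axis for the 20 contigs named by rule, in 3 control libraries (grey) and 3 drought libraries (orange), with short lines at the group means; contigs above the dotted line were ranked by the difference of the means in CPM and those below it by the gap between the groups. In comp688_c0_seq1 the drought libraries lie at 0.255 CPM or lower and the control libraries at 9.78 CPM or higher, and in the contig of 2472 bases the 3 drought libraries lie close together.

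Full on or off switching was rare. Of the tested contigs, 0 had no reads in all 3 libraries of 1 group and at least 10 in each library of the other. With up to 3 reads allowed per library, 6 contigs were near absent in control leaves and present in all drought libraries, and 2 showed the reverse; these contigs were singled out after their values were seen. The plainest rise among them was a contig of 908 bases with 0, 3 and 0 reads in control and 42, 33 and 30 reads in drought libraries (edgeR adjusted p = 0.000232). A contig of 925 bases had 1, 0 and 2 reads in control and 148, 11 and 18 in drought libraries, so 1 drought library held most of its reads.

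The 3 drought libraries lay at unequal distances from the control libraries, and the control libraries at unequal distances from the drought libraries. Over the 11826 contigs with a mean of 10 CPM or more, the root mean square difference in log2 CPM was 0.26 to 0.34 between control libraries and 0.33 to 0.48 between drought libraries. The largest distance within the drought group, 0.476 between replicates 1 and 3, exceeded the smallest distance across groups, 0.458 between drought replicate 3 and control replicate 3. Drought replicate 1 lay furthest from the control libraries (0.63 to 0.73) and drought replicate 3 nearest to them (0.46 to 0.57). Control replicate 1 in turn lay furthest from the drought libraries (0.57 to 0.73) and control replicate 3 nearest to them (0.46 to 0.63). Distances across groups alone do not tell unequal drought responses from a spread among the controls. Relative to the control mean, the raised contigs had a median log2 difference of 1.02, 0.88 and 0.68 in drought replicates 1, 2 and 3. The lowered contigs had one of −0.92, −0.88 and −0.75. Both sets were chosen on these same libraries, so their medians are a description and no support for unequal responses. Median within-group SDs over the same 11826 contigs were alike, 0.135 in control and 0.134 in drought leaves, but 126 contigs had an SD above 1 in drought and 25 in control leaves.

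Some rises were carried by 1 library. For 60 of the 1160 raised contigs, over 66.7% of the summed drought CPM came from 1 library, and in 57 of these it was drought replicate 1. Falls were not of this kind, with 3 of 1750 lowered contigs holding as large a part of their control level in 1 library. The median level of the 57 contigs was 29.9 CPM in drought replicate 1, 2.21 and 1.61 CPM in drought replicates 2 and 3, and 0.42 to 0.65 CPM in control libraries. These values chose the contigs and are a description. The other libraries were outside the contrast, but they shared its fit and so entered the choice through the filter, scaling and spread. There the median of the 57 was 3.43 to 4.99 CPM in infested drought and 1.30 to 2.25 CPM in infested control leaves. It was 1.84 to 5.74 CPM in infested flooding and 0.71 to 1.36 CPM in uninfested flooding leaves. Of the 57, 17 were called higher under feeding in flooding plants (29.8%), near the 28.6% of the other 1103 raised contigs and against 9.58% of all contigs tested. In infested plants 6 were called higher under flooding (10.5%, against 37.2% of the other raised contigs and 6.7% of all) and 2 under drought (3.51%, against 19.9% and 1.87%). The median log2 fold changes of the 57 there were larger, 1.34 under flooding and 1.03 under drought, against 0.45 and 0.44 for the others. Under feeding in flooding plants the median of the 57 was also larger, 1.91 against 0.28 for the others. The 57 were also less abundant: library medians of the other 1103 in infested leaves ran from 20.9 to 34.9 CPM. These differences were not tested.

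The drought response recurred in plants that carried caterpillars. Infested drought and infested control plants share no library with the uninfested ones, so they measure the same water treatments a second time. Of the 1160 contigs raised in uninfested leaves, 1087 (93.7%) had a positive log2 fold change there, and of the 1750 lowered contigs, 1679 (95.9%) had a negative one. Over all tested contigs, 51.4% were positive. In that comparison 1.87% of all contigs were called higher and 2.89% lower, against 221 of the 1160 raised contigs called higher (19.1%) and 433 of the 1750 lowered contigs called lower (24.7%). Among these, 0 contigs were called in opposite directions. The 221 made up 58.5% of the 378 contigs raised by drought in infested plants, and the 433 made up 74.3% of the 583 lowered ones. These lists were sensitive to single libraries: the 961 contigs called for drought in infested plants were 392 or 302 without infested control replicate 1 or 3, and 347, 483 or 332 without infested drought replicate 1, 2 or 3.

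Responses in infested plants were smaller for most contigs chosen in uninfested plants, but the choice itself favours large values in the plants that made it. The response was smaller in infested plants for 90.3% of the raised and 87.8% of the lowered contigs. Median log2 fold changes of the raised contigs were 0.92 in uninfested and 0.45 in infested plants, and those of the lowered contigs −0.87 and −0.49. Read the other way, the 378 contigs raised in infested plants had medians of 0.73 there and 0.54 in uninfested plants. The 583 lowered contigs had −1.0004 and −0.94. The response was larger in uninfested plants for 129 of these 378 contigs and for 253 of these 583. The largest rises shrank most: the 91 contigs raised 8-fold or more in uninfested leaves had a median of 3.77 there and 1.37 in infested leaves, all 91 of them positive. The 23 contigs lowered as much had medians of −3.33 and −2.40. The test of the difference itself called 0 contigs (edgeR, 1301 at an unadjusted p under 0.05 of 20170). DESeq2 called 29, 5 of them with the higher response in infested plants, so no difference between infested and uninfested plants is claimed for single contigs.

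**Figure D3:**
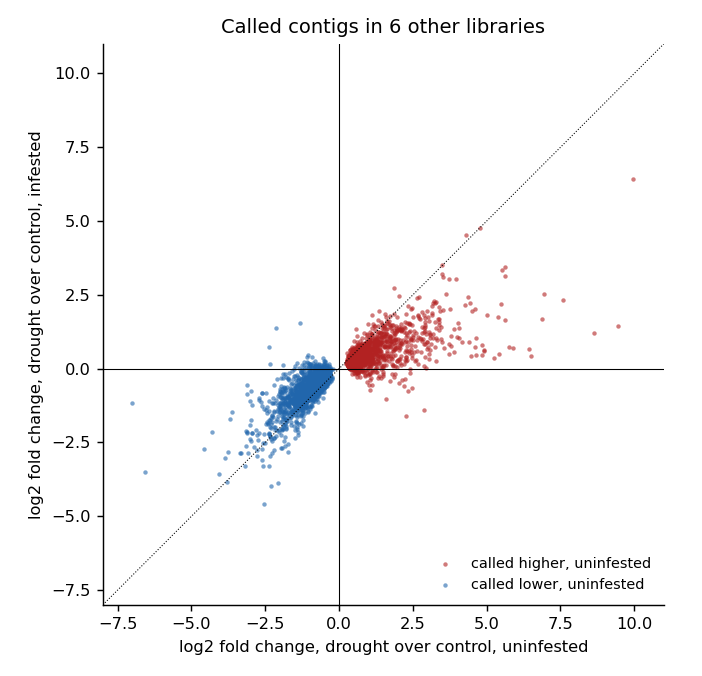
Log2 fold change of drought over control in uninfested leaves (horizontal) against that in infested leaves (vertical) for the 1160 contigs called higher (red) and the 1750 called lower (blue) in uninfested leaves; the dotted line marks equal values. The 2 axes share no library; 93.7% of red points lie above 0 and 95.9% of blue points below 0, most of them nearer to 0 than the dotted line.

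Of the 20 named contigs, 6 were called in infested plants, 2 rises and 4 falls. Of all tested contigs, 1.87% were called higher and 2.89% lower under drought in infested plants, and 51.4% had a positive log2 fold change. All 10 named rises had a positive and all 10 named falls a negative log2 fold change there. The other named contigs did not pass the test. The contig of 958 bases was at 6171 ± 819 CPM in infested control and 5913 ± 643 CPM in infested drought leaves (SD, n = 3 each; edgeR adjusted p = 0.904). The contig of 1532 bases, with a log2 fold change of 2.27 in uninfested leaves, was at 1107 ± 435 and 1337 ± 733 CPM (adjusted p = 0.78). Its level in infested control leaves was already above the 256 ± 114 CPM of uninfested control leaves (log2 fold change 2.11, edgeR adjusted p = 0.00864). comp6358_c0_seq1 stood at 4.74, 28.9 and 0.648 CPM in infested control and 152, 53.0 and 103 CPM in infested drought leaves, with no overlap but with a wide spread in the controls (3.15 ± 1.10 on the log2 scale, SE; adjusted p = 0.115 from edgeR). comp282_c0_seq1 was at 2083 ± 183 and 3111 ± 365 CPM (SD, n = 3 each; adjusted p = 0.0958). comp15_c0_seq1 was at 5114 ± 1499 and 2560 ± 653 CPM (adjusted p = 0.0932). The contig of 1015 bases fell again, from 25.8 ± 6.49 to 4.88 ± 0.412 CPM (−2.40 ± 0.39 on the log2 scale, adjusted p = 0.0044). comp688_c0_seq1 was already low in infested control leaves, at 1.30, 0.212 and 4.54 CPM, and stood at 0.381, 0.116 and 0.0 CPM in infested drought leaves (adjusted p = 0.0574).

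Levels in flooding leaves are given beside these without a comparison, since flooding and drought plants were set against the same controls. comp282_c0_seq1 was at 2222 ± 629 CPM in uninfested and 3007 ± 387 CPM in infested flooding leaves, and comp15_c0_seq1 at 1872 ± 696 and 887 ± 367 CPM. comp6358_c0_seq1, abundant in neither control nor uninfested flooding leaves (1.60 ± 0.484 CPM in the latter), was at 51.2 ± 75.5 CPM in infested flooding leaves, a spread as wide as its mean. comp688_c0_seq1 was low in both, at 2.42 ± 0.449 and 0.107 ± 0.106 CPM. The contig of 511 bases was at 0.137 ± 0.176 and 1.31 ± 1.41 CPM in flooding leaves, and at 29.1 ± 14.1 CPM in infested drought leaves (SD, n = 3 each).

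The share of reads held by the drought sets also differed between drought and control among the infested libraries. The lowered contigs held 17.4 ± 1.99% of reads in infested control and 12.2 ± 0.742% in infested drought leaves, and the raised contigs 7.01 ± 1.003% and 9.80 ± 0.753% (SD, n = 3 each). The groups did not overlap in either share.

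**Figure D4:**
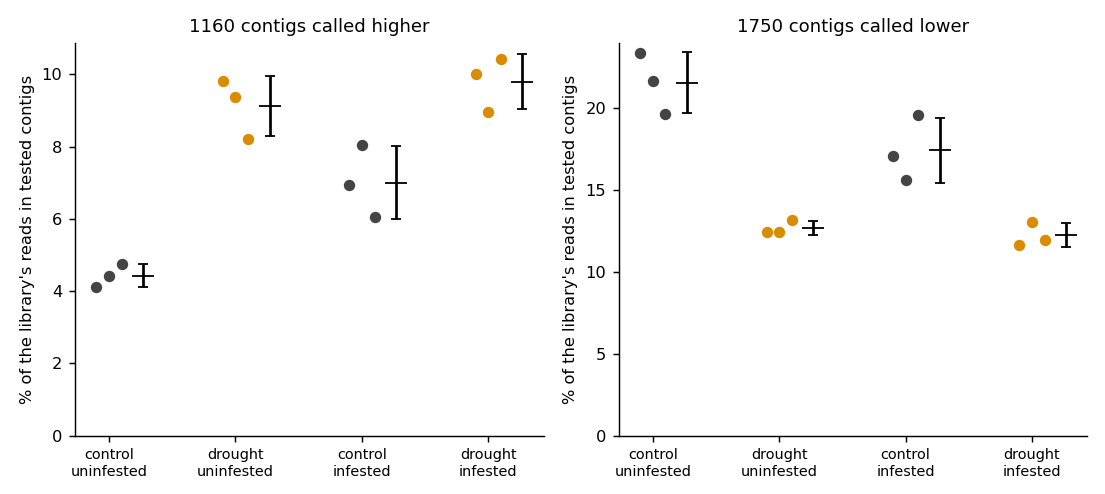
Percent of each library's reads in tested contigs held by the 1160 contigs called higher (left) and the 1750 called lower (right) in uninfested drought leaves, as 1 point per library with the mean and SD of 3 libraries beside them; both axes start at 0. The contigs were chosen on the contrast of the uninfested libraries, and the infested libraries entered that choice only through the shared fit. In the infested libraries the lowered contigs held 17.4% under control watering and 12.2% under drought.

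Drought leaves shared part of their profile with flooding and with feeding, read in libraries outside the 6. Of the raised contigs, 416 were called higher in flooding against control among infested plants (35.9%, against 6.7% of all contigs). Another 12 were called lower (1.03%, against 8.68% of all contigs). Of the lowered contigs, 834 were called lower (47.7%, against 8.68%) and 11 higher (0.63%, against 6.7%). That comparison rests on the same infested control libraries as the infested drought one. It also shares its infested flooding libraries with the feeding comparison that follows, so these overlaps are not independent of each other. Under feeding in flooding plants, 333 of the raised contigs were called higher (28.7%, against 9.58% of all contigs) and 31 lower (2.67%, against 5.79%). Of the lowered contigs, 300 were called lower (17.1%, against 5.79%) and 127 higher (7.26%, against 9.58%).

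The same overlaps were also read from the other side, from lists called in other libraries to the 6 uninfested ones. The fit and the comparisons were the same, so these values are no separate support. Mean log2 CPM of the 378 contigs raised by drought in infested plants was 0.77 ± 0.079 above the control mean in uninfested drought leaves, with control libraries between −0.039 and 0.043. The 583 lowered ones stood at −1.05 ± 0.18. The 1352 contigs raised by flooding in infested plants stood at 0.44 ± 0.11, and the 1750 lowered ones at −0.70 ± 0.15. The 1933 contigs raised by feeding in flooding plants stood at 0.35, 0.22 and 0.27 in drought replicates 1 to 3 and at −0.076, −0.052 and 0.13 in control replicates 1 to 3, so the groups lay apart but control replicate 3 came near the drought libraries. Of these 1933 contigs, 333 were higher (17.2%, against 5.75% of all contigs) and 127 lower (6.57%, against 8.68%) in uninfested drought leaves.

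**Figure D5:**
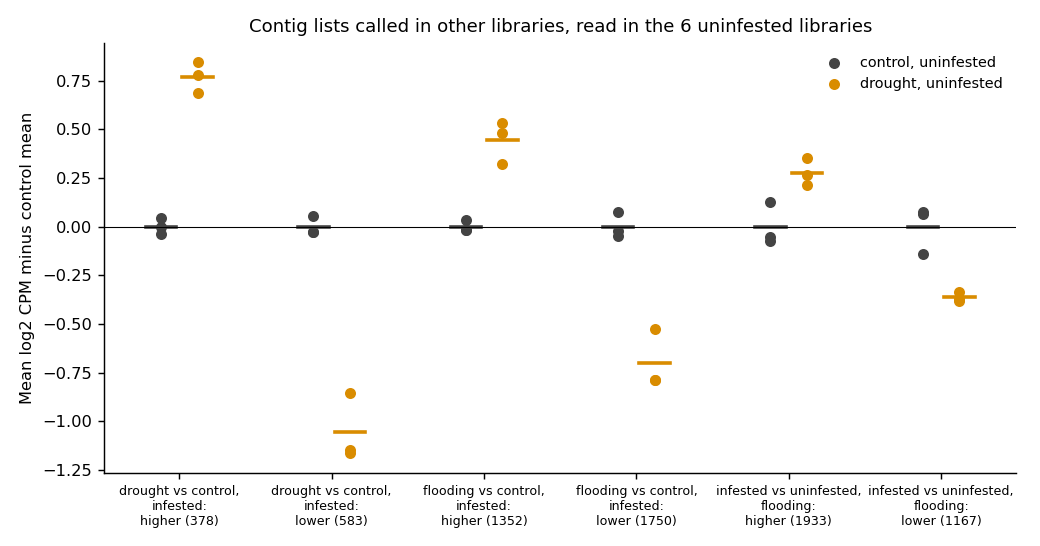
Mean log2 CPM, relative to the mean of the control libraries, of 6 contig lists called in libraries other than the 6 shown, in 3 uninfested control libraries (grey) and 3 uninfested drought libraries (orange), with short lines at the means; the number of contigs in each list is in parentheses. Drought libraries lie above the control libraries for the 3 raised lists and below them for the 3 lowered lists, furthest for drought in infested plants (0.77 and −1.05).

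Contigs of the same assembly component, which can be parts or forms of 1 locus, were called in 14.2% of 246 cases, against 14.4% of all tested. Of 120 components with at least 2 tested contigs, 30 had a called contig, and in 25 of these exactly 1 contig was called. In 3 all contigs were called in the same direction, and in 2 contigs were called in opposite directions. The clearer of these 2, singled out after its values were seen, had a contig of 3769 bases that rose from 21.5, 23.1 and 22.2 CPM to 51.9, 62.5 and 42.9 CPM (1.23 ± 0.22 on the log2 scale, SE; adjusted p = 0.00247 from edgeR). Its partner of 2309 bases fell from 299, 264 and 248 CPM to 135, 168 and 178 CPM (−0.75 ± 0.13, adjusted p = 0.00143). The labels do not say how reads were divided between contigs of a component, so such opposite changes are uncertain.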

How the data were processed

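RNA was measured in leaves, 3 samples for each of 6 combinations, which the series design calls biological replicates. The submitters' processing notes list Bowtie 0.12.7 and DESeq; assembler, read counter and strand setting are not given in the sources used here. The first deposited table held raw read counts per contig. In the second deposited table the authors gave a normalized signal, on the values the raw count scaled by library and by contig length (largest relative departure 1.1e-09), and was used only in an alternative. It left out 134 of the contigs tested.

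Raw counts were tested with edgeR 4.0.16 in R 4.3.3: filterByExpr (minimum count 10, total 15), TMM, and 1 robust quasi-likelihood fit of 6 group means to 18 libraries (12 residual degrees of freedom, biological coefficient of variation 18.6%). SE is the log2 fold change over the square root of F; for log2 CPM, the prior count was 2. Alternatives used limma 3.58.1 and DESeq2 1.42.0.

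The comparison, lists and tests were chosen with earlier results of these data known. Named contigs followed a rule: among called contigs with at least 8 CPM and groups apart, per direction the 5 with the largest CPM difference and the 5 with the largest gap fold. Same-numbered replicates did not deviate together.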

Additional observations from a re-analysis of the deposited data

How the results depend on the processing

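Among the alternatives, the counts of 2910 calls, 1160 rises and 1750 falls stayed within 1.5 times under other scaling, filters, DESeq2, limma and subsets of samples; leaving out libraries gave 1505 to 2892, 598 to 1250 and 907 to 1694. Rises and falls of at least 2-fold ranged from 330 to 698 and 439 to 778, and were 43 and 44 when tested against a 2-fold change. Those of at least 8-fold were 59 and 12 with the stricter filter and 53 and 14 with only the 6 samples, falls numbered 15 with the 9 uninfested samples, and they ranged from 43 to 130 and 16 to 44 over left-out libraries. Contigs called for drought in infested plants went from 961 to 1539 with DESeq2 and between 302 and 1030 over left-out libraries. The difference between infested and uninfested plants called 29 contigs with DESeq2, 3 with only the 12 samples of 4 groups and 0 to 2 over left-out libraries. Detected contigs differed by 34.7 between drought and control leaves at 1 CPM and by −50.0 at 2 CPM, and by −0.333 to 72.2 over left-out libraries. The shares of reads in the top 10 and 100 contigs kept their direction in each case.

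Deviations of same-numbered libraries correlated at 0.037, 0.12 and −0.023, so replicate numbers were not taken to pair samples. With the replicate block, 2609 contigs were called for drought in uninfested leaves and no count of calls moved by over 1.5 times; of the named contigs, that of 958 bases lost its call (adjusted p = 0.0773). Of 419 refits of the 20 named contigs, 367 kept the call and 52 lost it, with no change of direction, and DESeq2 gave no adjusted p for the contig of 1357 bases; 10 contigs kept it without each of the 6 libraries. Causes were not tested. Samples of 3 a group limit what can be called.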
